A study of Mus musculus with 10 samples.

Results

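The distal Suz12 sites were those sites of the Suz12 binding list whose center lay more than 10000 bp from every transcript start, of any gene type, in the GENCODE vM1 annotation of the mouse genome (mm9). They numbered 1194 of 8876 Suz12 sites, or 13.5% with a 95% Wilson interval of 12.8 to 14.2%. They were compared with the 5594 proximal sites, whose centers lay within 1000 bp of a start, and the remaining 2088 sites were called intermediate. The class came from the annotation and not from a measured value. On either side of the limit, the nearest members were 10016 bp from a start, 1 in Srcin1 with a strength of 18.8 and 1 near Zfp541 with 13.2, and the nearest intermediate sites were 9966 bp away in Ccr7 with 8.34 and 9933 bp away in Dsp with 9.47.

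The sites were found by ChIP-seq in mouse embryonic stem cells (ESCs) of the gene trap line XG122 with the genotype Suz12 Suz12TAP/+, in which 1 allele of Suz12 makes the protein with a 6xHis-3xFlag tag (TAP) from its own locus. All of these cells carried an shRNA: a scramble shRNA in the control and an shRNA against Pcl3 in the knockdown. Suz12 was precipitated through the Flag tag, and its list compares the scramble library with input DNA. The Suz12-depleted list and the H3K27me3-depleted list hold regions with fewer reads in Pcl3 shRNA than in scramble cells. The Pcl3 list comes from 2 libraries of other ESC clones, which carried a Pcl3 shRNA (shRNA6 or shRNA7) and a TAP-tagged Pcl3 that the shRNAs do not recognize, so it shows the added protein and not the endogenous one. Every other condition had 1 library, the cells were clones selected after lentiviral infection, and the tests below are over sites, so they cover no variation between cultures. The lists give 1 p-value per site and no read counts, so the depth behind a site is not known from the files, the knockdown of Pcl3 cannot be read from them, and the ESC identity cannot be checked from marker genes.

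Suz12 is a core subunit of Polycomb repressive complex 2 (PRC2), whose catalytic subunit trimethylates lysine 27 of histone H3. In ESCs PRC2 is best known at the CpG islands of silent developmental genes. CpG islands are CpG-rich stretches that are common at promoters, including those of housekeeping genes. Pcl3 is a Polycomb-like accessory protein of the complex. CpG islands also occur away from annotated promoters, inside genes and between them.

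The 300 bp around the centers of 5 distal sites are given here to show how much the underlying sequence varied, in mm9 on the plus strand with each CpG in capitals. The first 2 were among the 3 strongest sites by p-value and then width, the third was the first on a coding exon in that order, the fourth was the strongest outside the Suz12-depleted list and the last was the poorest in CpG among the 100 strongest. The third was added after its values were seen.
Nfix intron site, chr8:87309125-87309424: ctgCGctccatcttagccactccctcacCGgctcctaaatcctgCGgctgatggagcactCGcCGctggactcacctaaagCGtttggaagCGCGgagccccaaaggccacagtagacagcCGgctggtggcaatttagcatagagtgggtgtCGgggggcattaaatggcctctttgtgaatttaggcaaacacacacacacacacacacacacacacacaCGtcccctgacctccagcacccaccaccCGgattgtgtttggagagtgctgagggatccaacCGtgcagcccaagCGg
Dhx15 distal site, chr5:52505400-52505699: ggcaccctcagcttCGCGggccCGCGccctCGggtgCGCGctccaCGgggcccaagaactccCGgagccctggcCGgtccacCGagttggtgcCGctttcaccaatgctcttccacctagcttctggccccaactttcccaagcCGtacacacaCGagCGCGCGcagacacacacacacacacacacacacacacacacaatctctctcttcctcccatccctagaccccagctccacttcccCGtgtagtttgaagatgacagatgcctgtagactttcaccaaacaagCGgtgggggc
Otud7a coding exon site, chr7:70903225-70903524: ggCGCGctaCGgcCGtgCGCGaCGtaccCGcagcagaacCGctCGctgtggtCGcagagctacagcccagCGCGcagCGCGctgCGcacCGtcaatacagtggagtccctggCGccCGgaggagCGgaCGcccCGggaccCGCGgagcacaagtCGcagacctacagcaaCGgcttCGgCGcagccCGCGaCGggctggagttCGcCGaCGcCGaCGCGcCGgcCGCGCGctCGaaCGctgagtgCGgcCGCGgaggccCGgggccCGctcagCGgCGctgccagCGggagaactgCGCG
Tns1 intron site, chr1:74114975-74115274: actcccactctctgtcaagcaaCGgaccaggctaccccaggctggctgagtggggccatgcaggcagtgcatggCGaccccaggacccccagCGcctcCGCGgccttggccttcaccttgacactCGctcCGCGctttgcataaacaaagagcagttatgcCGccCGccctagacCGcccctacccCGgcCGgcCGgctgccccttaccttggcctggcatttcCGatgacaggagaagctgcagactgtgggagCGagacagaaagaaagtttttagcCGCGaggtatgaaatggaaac
Gm5614 distal site, chr9:35112775-35113074: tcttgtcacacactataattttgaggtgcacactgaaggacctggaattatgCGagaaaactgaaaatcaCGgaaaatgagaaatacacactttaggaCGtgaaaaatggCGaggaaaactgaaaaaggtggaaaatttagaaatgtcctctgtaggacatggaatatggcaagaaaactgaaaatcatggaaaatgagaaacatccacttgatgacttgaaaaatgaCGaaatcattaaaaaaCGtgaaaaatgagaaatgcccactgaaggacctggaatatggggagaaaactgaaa
The Otud7a exon held 53 CpGs in its 300 bp, whereas the Gm5614 site held 6 and had a GC content of 36.7%. The Dhx15 and Tns1 windows held 19 and 18 CpGs and the Nfix window 14. The p-value of binding was written as 0 for the first 3 sites and was 1.71e-48 for the Tns1 site and 1.49e-126 for the Gm5614 site, so the CpG count did not order these 5 by strength.

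Distal sites were weaker and narrower than proximal sites. Strength is used here for the −log10 of the p-value of binding, with the 435 p-values written as 0 (12 of them at distal sites) set to the largest value of 307. The median strength was 17.6 at distal sites (95% interval of the median, from order statistics, 16.1 to 18.9) and 30.6 at proximal sites (29.3 to 32.5), with 21.7 at intermediate sites. The quartiles were 9.96 and 42.9 at distal sites and 13.8 and 82.6 at proximal sites, so the 2 distributions overlapped over most of their range. The median width was 850 bp against 1200 bp. Of the distal sites, 15.3% fell in the weakest decile of all Suz12 sites and 3.43% in the strongest, against 8.13% and 10.4% of the proximal sites.

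**Figure D1:**
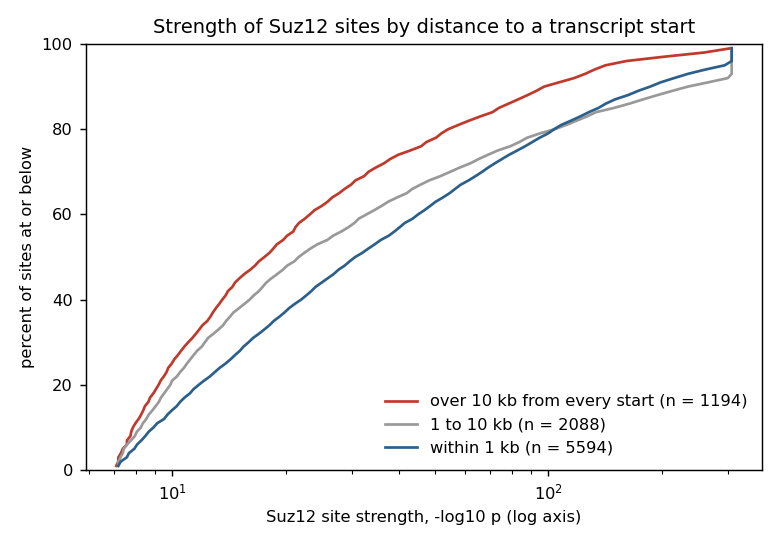
Cumulative percent of Suz12 sites (vertical axis) at or below a given strength, −log10 p on a log axis (horizontal), for distal (red), intermediate (grey) and proximal (blue) sites. The distal curve lies to the left, with a median of 17.6 against 30.6 for proximal sites.

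CpG density was also lower at distal sites. In the 500 bp around the center the median was 5.2 CpG per 100 bp at distal sites (interval 5 to 5.4), 8.2 at proximal and 4.8 at intermediate sites, and the median GC content was 60.2%, 66.2% and 59%. A CpG island, taken as any 500 bp window, within the 1000 bp around the center, in which G and C made up 55% or more of the bases and CpGs exceeded 0.65 of the number its base composition predicts, was present at 656 of 1194 distal sites (54.9%, Wilson interval 52.1 to 57.7%) and at 85.6% of proximal sites. The difference was −30.7 percentage points (−33.6 to −27.7) and its two-sided p by Fisher's exact test was 1.53e-110, or 6.12e-110 adjusted over 4 tests. The CpG-rich run GCGCGC, which reads the same on both strands, lay in the 500 bp around 25.1% of distal, 45.7% of proximal and 37.5% of all Suz12 centers.

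The CpG content of distal sites depended on their strength far more than that of proximal sites did. An island was present at 23.5% of the distal sites in the weakest decile of strength and at 92.7% of those in the strongest, whereas proximal sites had 74.9% and 87.9%. Median CpG density at distal sites went from 3.8 per 100 bp in the weakest decile to 8.4 in the strongest, and at proximal sites from 7.2 to 8. The odds ratio of an island, distal against proximal within deciles (Mantel-Haenszel), was 0.223 with an interval of 0.192 to 0.258, but it was not the same in each decile (Breslow-Day chi-square p = 4.26e-10). In the strongest decile the distal island share was the higher and the Wilson intervals of both classes overlapped.

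**Figure D2:**
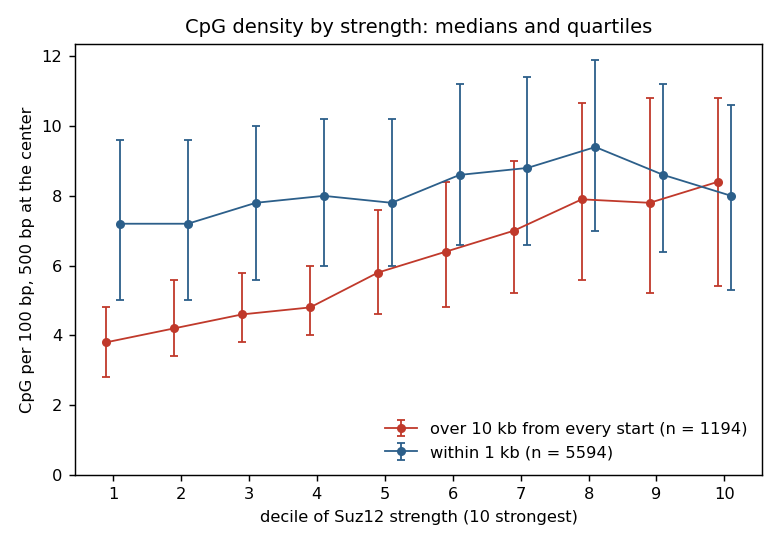
Median CpG per 100 bp in the 500 bp around the center (vertical axis, bars from the first to the third quartile) by decile of Suz12 strength (horizontal axis, 10 the strongest) for distal (red) and proximal (blue) sites. The distal median goes from 3.8 to 8.4 and the proximal from 7.2 to 8.

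Pcl3 lay within 2 kb, center to center, of 456 distal sites (38.2%, 35.5 to 41%) and of 44.5% of proximal sites, beside 44.9% of all Suz12 sites. Intermediate sites had the largest share, 49.9% (47.7 to 52%), and distal sites had 0.621 times their odds. The distal minus proximal difference of −6.36 points (−9.37 to −3.28) corresponded to odds of 0.769 times those of proximal sites (two-sided Fisher p = 5.77e-05, adjusted 7.69e-05). The pooled difference did not pass the threshold when distal meant over 20 kb (odds ratio 0.921) or when weaker sites, those with p-values above 1e-12, were left out (0.923). Among sites of like strength the order was the opposite. The Mantel-Haenszel odds ratio over deciles of strength was 1.54 (1.31 to 1.82; Mantel-Haenszel chi-square p = 2.98e-07, adjusted 5.97e-07), and the deciles did not differ beyond counting error (Breslow-Day p = 0.322). In the sixth decile, for example, 49.6% of distal and 33.3% of proximal sites had Pcl3, and in the seventh 67.8% and 52.1%. Pcl3 was at 97.6% of distal sites in the strongest decile and at 14.8% in the weakest. A larger share of distal than of proximal sites was in the weak deciles, where few sites of either class had Pcl3. At sites with an island only, the ratio within deciles was 1.52 (1.23 to 1.88). These tests count each site as independent, although sites in groups share neighbouring Pcl3 sites. With both classes limited to sites with no other Suz12 site within 10 kb, the ratio within deciles was 1.33 (1.08 to 1.65). Where Pcl3 was present its own sites had a median strength of 19.3 at distal and 21.2 at proximal sites, with quartiles of 10.8 and 42.2 against 11.3 and 49.7.

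Suz12 loss followed the same pattern. The strength of binding and the Suz12-depleted list share the scramble Suz12 library, so the dependence of one on the other is not a result, and its size is given only to read the comparison of distal with proximal sites. A depleted site lay within 2 kb of 709 distal sites (59.4%, 56.6 to 62.1%) and of 70.2% of proximal sites, beside 68.3% of all sites (odds ratio 0.620, two-sided Fisher p = 6.94e-13, adjusted 1.39e-12). All depleted sites repeated the position of a Suz12 site exactly, so loss could also be scored for the site itself. By that count 685 distal sites (57.4%, 54.5 to 60.1%) and 68% of proximal sites were depleted, beside 64.5% of all. Intermediate sites were close to distal sites by this count, at 59.1% (57 to 61.2%). A depleted site lay within 2 kb of 68.4% of them. The lower share of depleted sites was therefore not particular to the distal class. Within deciles of strength distal sites were the more often depleted, with an odds ratio of 1.27 for a depleted site within 2 kb (1.06 to 1.53; Mantel-Haenszel chi-square p = 0.00942, adjusted 0.00942) and of 1.49 for the site itself (1.23 to 1.81; p = 4.44e-05). The first of these no longer passed the threshold with coding exon sites left out of both classes, at 1.16 (0.952 to 1.42), or of the distal class alone, at 1.19 (0.980 to 1.44). In the 5 weaker deciles the ratio for the site itself was 1.56 (1.27 to 1.91). In the 5 stronger deciles nearly every site of either class was depleted and the ratio was 1.09 (0.612 to 1.95). The 3 strongest deciles held 100, 83 and 41 distal sites, all of them in the depleted list, as were 2.73% of those in the weakest decile.

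Called H3K27me3 loss was rare. The list holds the 678 regions called by p-value, so absence from it does not show that the mark was kept. The paper reports a widespread decrease of H3K27me3 by ChIP-seq and a deeper one by immunoblot. A region with decreased H3K27me3 lay within 2 kb of 80 distal sites (6.70%, 5.42 to 8.26%) and of 6.19% of proximal sites, beside 7.37% of all sites. The distal and proximal shares did not differ beyond counting error (difference 0.515 points, −0.929 to 2.19, two-sided Fisher p = 0.511, adjusted 0.511). Intermediate sites had a larger share, 10.9% (9.65 to 12.3%). The odds ratio of distal against intermediate sites was 0.586 (0.449 to 0.764). Without chromosome 11 the pooled odds ratio of distal against proximal sites was 1.36 and passed the threshold. With distal sites over 20 kb from a start it was below 1, at 0.795. Within deciles of strength the odds ratio was 1.56 (1.20 to 2.03; Mantel-Haenszel chi-square p = 0.000822, adjusted 0.0011), and it was unequal across deciles (Breslow-Day p = 0.000346). In the third decile 10 of 156 distal and 1 of 491 proximal sites had such a region nearby, and in the seventh the shares were 4.44% and 6.64%. The ratio was 2.62 (1.71 to 4.02) in the 5 weaker deciles and 1.15 (0.815 to 1.63) in the 5 stronger ones. With coding exon sites left out of both classes it was 1.32 (0.945 to 1.84) over all deciles, with a Mantel-Haenszel chi-square p of 0.104, and with them left out of the distal class alone 1.12 (0.815 to 1.55).

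**Figure D3:**
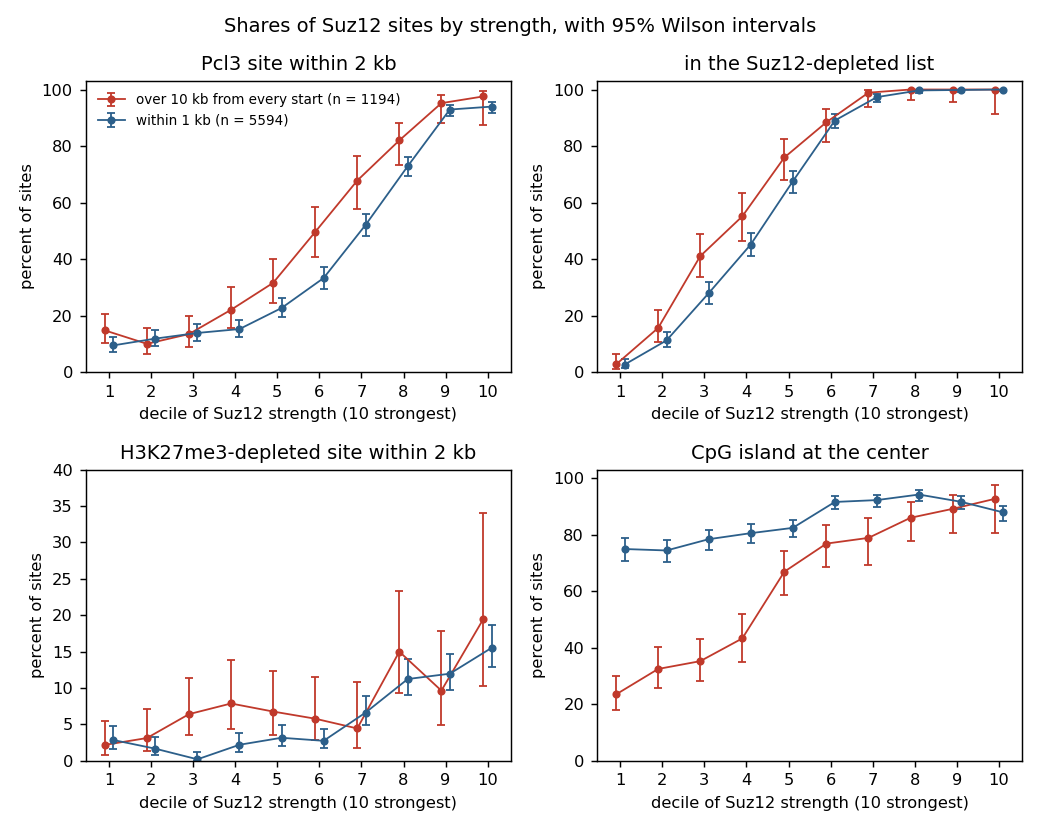
Percent of sites (vertical axes) with a Pcl3 site within 2 kb, in the Suz12-depleted list, with an H3K27me3-depleted site within 2 kb and with a CpG island at the center, by decile of Suz12 strength (horizontal axes, 10 the strongest), for distal (red) and proximal (blue) sites with 95% Wilson intervals. Distal sites lie above proximal sites for Pcl3 in deciles 4 to 10 and far below them for islands in the weak deciles.

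Distal sites lay mostly between genes. The center was intergenic at 755 sites, in an intron at 215, on a coding exon at 198, in a UTR at 15 and on a noncoding exon at 11. The 198 coding exon sites, in 179 genes, stood apart from the intergenic ones in the 4 readouts. Pcl3 was within 2 kb of 28.3% of them (22.5 to 34.9%) and of 43.2% of intergenic sites (39.7 to 46.7%). H3K27me3 loss went the other way, at 16.2% (11.7 to 21.9%) against 4.5% (3.24 to 6.23%), and so did presence in the Suz12-depleted list, at 68.7% against 56.6%, and a CpG island, at 74.7% against 53%. Within pairs of strength deciles the odds ratio of a coding exon against an intergenic site was 0.207 for Pcl3 (0.124 to 0.346) and 3.90 for H3K27me3 loss (2.32 to 6.53). These ratios are given without a p-value because the contrast was chosen after the shares had been seen. Both were much the same without chromosome 11, at 0.198 and 3.92, and at sites with an island, at 0.271 and 3.99. For presence in the Suz12-depleted list the ratio was 1.83 (1.11 to 3.03) over all sites, and its interval included 1 at sites with an island, at 1.68 (0.868 to 3.27), and without RefSeq starts within 1 kb, at 1.64 (0.984 to 2.74). Intron sites resembled coding exons in Pcl3, at 29.8%, and intergenic sites in H3K27me3 loss, at 6.05%. Coding exons held more H3K27me3 loss than intergenic centers also among intermediate sites, at 13.3% against 7.11%, and among proximal sites, at 8.74% against 5.83%. Among intermediate sites, however, UTRs and noncoding exons together had 20.9% and introns 11%. The lower Pcl3 share of coding exons recurred among intermediate sites, at 37% against 54.5% of intergenic ones. It did not recur among proximal sites, at 43.6% against 42.5%. Of the coding exon sites 28.3% lay within 1 kb of a transcript end, against 7.20% of all distal sites, and the part of that position in these shares was not tested.

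**Figure D4:**
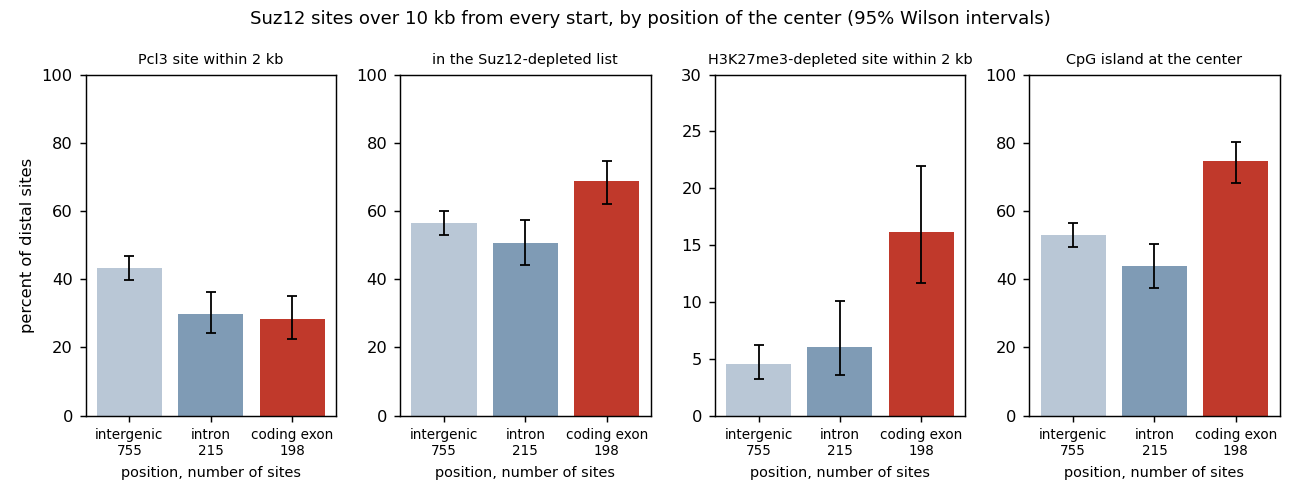
Percent of distal sites (vertical axes) with Pcl3, Suz12 loss, H3K27me3 loss or a CpG island, by the position of the center (755 intergenic, 215 intron and 198 coding exon sites), with 95% Wilson intervals and a shorter axis for H3K27me3 loss. Coding exon sites have the most H3K27me3 loss, 16.2%, and less Pcl3, 28.3%, than intergenic sites.

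Beyond 10 kb strength varied little with distance from a start, and Pcl3 and H3K27me3 loss varied more. The median distance was 23485 bp and the largest 691222 bp. Strength had medians of 16.6 at 10 to 20 kb, 17.8 at 20 to 50 kb, 17.6 at 50 to 100 kb and 18.9 beyond 100 kb, with overlapping intervals. Pcl3 was at 32% of the 491 sites of the first band (28 to 36.2%) and at 42.4%, 41.9% and 44.3% in the others, while H3K27me3 loss went from 9.16% in the first band to 2.27% in the last, where it was 2 of 88 sites. The site farthest from any start, chr12:44073601-44074250, was weak, with a strength of 7.57, and had neither Pcl3 nor Suz12 loss. The other 4 of the 5 farthest had both, among them a site with a strength of 56.8 nearest to Rbfox1, a neuronal splicing factor gene, another of 72.7 with a RefSeq start sequence of Rbfox1 at 639 bp, and 1 in an intron of Il1rapl1, a synaptic adhesion gene, with 40.5. Over all Suz12 sites 44.9% had Pcl3 and 64.5% were in the depleted list. The 4 sites had strengths of 27.5 to 72.7, above the distal median of 17.6, and were not matched on strength.

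Pcl3, both losses and islands were counted at the strongest distal sites. A p-value written as 0 tied 12 distal sites, which were ordered by width, so the strongest are a choice among ties. Of the first 10 by this order, all 10 were in the Suz12-depleted list, 9 had a Pcl3 center within 2 kb and 4 had H3K27me3 loss. Over the 100 strongest, in the same order, the counts were 100, 97 and 13, beside 64.5%, 44.9% and 7.37% of all Suz12 sites. An island was at 91 of the 100, beside 72.9% of all Suz12 sites. These sites were picked for strength, which the depleted list shares and with which Pcl3 rose. Nothing particular to distal sites is therefore read from these counts. Among the 5 widest were sites in an intron of Ptprn2, at 5650 bp, in Nfix at 5450 bp, near Dhx15 at 4500 bp and in a UTR of Wnt10a at 4400 bp, and all were in the Suz12-depleted list. Near Pax3, a homeobox factor of neural crest and muscle, chr1:78212101-78215500 lay 20091 bp from the start with 14.4 CpG per 100 bp. Near Tbx5, a T-box factor of heart and forelimb, chr5:120252451-120255450 lay 30722 bp from the start and had Pcl3 at a center distance of 0 bp and H3K27me3 loss (p-value 1.80e-10). On a coding exon of Otud7a, a deubiquitinase gene, chr7:70901801-70904950 held 18.2 CpG per 100 bp, a density that only 1 other distal site, on a coding exon of Nrg2, matched. The coding exon site in Bcl11b tied with it at a strength of 307, that in Foxo6 had 268, and Foxo6 was named after its values were seen.

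The strongest sites without Pcl3 or without Suz12 loss are given by name. By the center rule the 3 strongest distal sites without Pcl3 were in Nfix, near Nr2f2 and in Uncx, with strengths of 307, 129 and 116. Each of them shared bases with a broad Pcl3 site whose center lay 2350, 2450 and 10925 bp away. This was so for 7 of the 738 distal sites without a Pcl3 center within 2 kb. The strongest that shared no base with any Pcl3 site were on coding exons of Tbkbp1 and Shroom3, with strengths of 96.8 and 91.8, and at chr8:52000351-52002450, 352805 bp from the nearest start, with 92.2. These 3 were named after their values were seen, and all 3 were in the Suz12-depleted list, beside 64.5% of all Suz12 sites. They were picked for strength, which the depleted list shares, and every distal site in the 3 strongest deciles was in that list. Nothing is therefore read from this count. The strongest distal site outside the depleted list, in an intron of Tns1, a focal adhesion gene, had a strength of 47.8 and no Pcl3. Of the 4 distal sites nearest to Tns1, however, 2 were depleted and 2 had Pcl3. By ChIP-qRT-PCR the paper names Tns1 among Suz12 targets that Pcl3 does not affect, and the position it tested was not compared with this site. The next strongest outside the depleted list was near Begain with 37.7 and H3K27me3 loss, and the third, chrX:11241351-11243050, had 36.5 and Pcl3.

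At the strongest H3K27me3 losses 3 of 5 sites were on coding exons, of Lingo1 (p-value 5.91e-16), Zfhx3 (1.58e-14) and Ptrf (2.17e-14), and 1 was in an intron of Wnt3 (3.57e-14). Coding exons held 198 of the 1194 distal sites and 32 of the 80 with H3K27me3 loss. The 5 sites come from the same list as those 80, so nothing further is read from their positions. Lingo1 encodes a neuronal membrane protein, Zfhx3 a zinc finger homeobox factor, Ptrf a caveola component and Wnt3 a signalling ligand. The smallest p-value, 1.78e-36, was that of the CpG-poor Gm5614 site, which also had Pcl3 and Suz12 loss and a strength of 126. Its printed sequence is of the kind of the mouse major satellite, the tandem repeat of pericentromeric heterochromatin. Of its 10-base runs 25% occurred more than once in the site, against a median of 0.815% over distal sites. In all 9 distal sites had at least 20% of such runs, and 2 of them lay near Rasgrf1, whose imprinting control region holds a tandem repeat, with strengths of 75.8 and 12.8. The part of repeats in these calls was not tested. Without the 9 sites the shares were 38% for Pcl3, 57.3% for presence in the depleted list and 6.58% for H3K27me3 loss.

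Most distal sites stood alone, and the others were in groups. The distance to the nearest other Suz12 site had a median of 21350 bp at distal, 53575 bp at proximal and 3600 bp at intermediate sites. With sites joined where centers followed within 10 kb, 798 distal sites stood alone, 322 were in a group with no site at a start and 74 in a group that held one. Pcl3 was at 30.7% of the lone sites (27.6 to 34%), at 51.9% of those in the second kind of group (46.4 to 57.3%) and at 59.5% of those in the third (48.1 to 69.9%). Median strength was 15.5, 21.5 and 25.6 in these 3 sets, and grouped sites share neighbouring Pcl3 sites, so they are not independent. The 456 distal sites with Pcl3 were near 510 distinct Pcl3 sites.

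The group with the most distal sites was downstream of Nr2f2, which encodes a nuclear receptor of vessel, heart and neural development. It held 12 Suz12 sites over 46000 bp, 8 of them distal, with strengths of 63.5, 307, 53.3, 7.58, 112, 22.8, 129 and 95 in order of position on chromosome 7. All but the weakest were in the depleted list, and the Pcl3 list covered most of the stretch with 11 sites, which also extended over the gene. H3K27me3 loss was called once, at chr7:77476651-77477950 (p-value 6.13e-07), inside the strongest of the 8. Counts at other genes with several distal sites are a description, with few sites per gene and no matching on strength. Over all Suz12 sites 64.5% were in the depleted list, 44.9% had Pcl3 and 7.37% had H3K27me3 loss. All 8 sites nearest to Zfhx3 were in the depleted list, with Pcl3 at 5 and H3K27me3 loss at 3, whereas of the 8 nearest to Pax2, a kidney and midbrain factor, 7 had Pcl3 and 4 were depleted, with no H3K27me3 loss. The 6 sites of Tbx5 were all depleted and 3 had Pcl3, and of the 6 of Lmx1b, a limb and neuronal homeobox factor, 5 were depleted, 3 had Pcl3 and 2 had H3K27me3 loss. The 7 sites nearest to Smug1, a DNA repair gene beside the Hoxc cluster, had Pcl3 at 7 and Suz12 loss at 6. The 4 sites grouped near Meis2, a homeobox factor, and the 4 near Tcfap2c, a trophoblast and germ line factor, all had both Pcl3 and Suz12 loss. A group near Rhcg had 7 sites, all distal, with Pcl3 at 6, Suz12 loss at 3 and H3K27me3 loss at 2. In contrast, the 4 distal sites grouped near Bcor had Suz12 loss at 3 and no Pcl3, and the 4 near Cdh22 had Suz12 loss at 1 and no Pcl3, with no strength above 12.9.

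**Figure D5:**
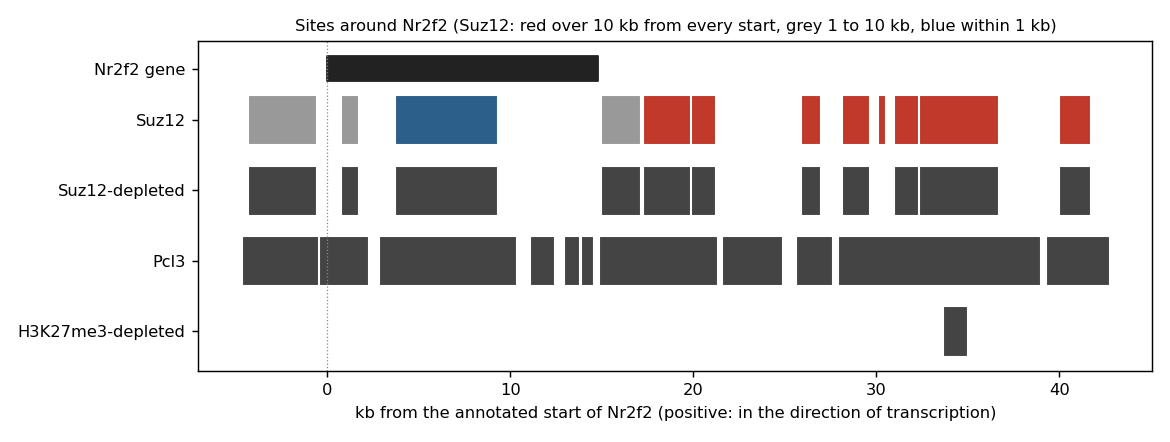
Sites of the 4 lists around Nr2f2, in kb from its annotated start (horizontal axis, positive in the direction of transcription), 1 row per list. The 8 distal Suz12 sites (red) lie beyond the gene's end, 7 of them are repeated in the Suz12-depleted row, and 1 H3K27me3-depleted site lies within the strongest.

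Most of the protein-coding genes nearest to a distal site had only 1. The 1194 sites were assigned to 863 genes, of which 662 had 1 distal site, 201 had 2 or more and 12 had 5 or more. Nr2f2 had 10, Pax2, Rhcg and Zfhx3 8 each, Smug1 and Bcor 7 each and Tbx5 and Lmx1b 6 each. Of 13 lists of developmental and neuronal genes, written as symbol patterns, members of any list were nearest to 23.8% of distal sites (284, in 163 genes), 13.9% of proximal sites and 20.9% of all Suz12 sites. Homeobox factors made up 9.55%, 3.00% and 6.96%. Intermediate sites had the largest shares, at 37.9% for any list and 16.1% for homeobox factors. Of the 114 distal homeobox sites 67 had Pcl3 (58.8%, beside 44.9% of all Suz12 sites) and 79 were in the depleted list (69.3%, beside 64.5%), and their median strength of 28.8 was above the distal median of 17.6. Nuclear receptors were nearest to 20 distal sites, 10 of them assigned to Nr2f2, with a median strength of 39.3, and forkhead factors were nearest to 16. Channels and neurotransmitter receptors were the reverse, with 2.01% of distal, 3.29% of proximal and 2.97% of all sites. Collagens were nearest to 5 distal sites, with a median strength of 8.44 and neither Pcl3 nor loss at any of them. These shares are a description, since the same gene was counted once for each of its sites.

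The strongest distal site of each list showed the range. For 13 lists, 11 of these sites had Pcl3, 12 were in the depleted list and 3 had H3K27me3 loss, beside 44.9%, 64.5% and 7.37% of all Suz12 sites. They were picked for strength, which the depleted list shares, so nothing is read from these counts. That of the forkhead factors, near Foxd1, had a strength of 291, that of Wnt, BMP, Fgf, Hedgehog and Notch signalling, in a UTR of the ligand gene Wnt10a, 306, and that of the axon guidance genes, near the ephrin receptor gene Ephb3, 171. Neurog1, a proneural factor, had 165 and Kcng2, a potassium channel gene, 141. The site in an intron of Gata4, an endoderm and heart factor, had 52.3 without Pcl3, and that near Sox17, an endoderm factor, had 38.5 with it. The site near Col1a1 had 26.1, with neither Pcl3 nor Suz12 loss.

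Part of the distal class depended on the annotation. RefSeq start sequences, 40 bases around each start in a table of a later mouse build (GRCm38.p6), were searched for by sequence around the mm9 centers. A start sequence was found within 1 kb of 136 distal sites (11.4%, 9.71 to 13.3%) and within 10 kb of 349 (29.2%). The search found one within 1 kb of 68% of proximal sites, so its counts are lower bounds. Of the 136 sites 119 were intergenic in GENCODE vM1, and 19 of the 100 strongest distal sites were among them. The strongest had starts of Tmem178b at 690 bp, Fat3 at 874 bp, Dpf3 at 787 bp, Shisa8 at 471 bp and Foxp1 at 937 bp, and these genes were named after their values were seen. Sites with such a start had an island at 69.9% and H3K27me3 loss at 2.94%, against 53% and 7.18% of the other distal sites, and Pcl3 at 41.9% against 37.7%. Without the 349 sites the odds ratio for Pcl3 within deciles was 1.53 (1.27 to 1.85) and that for Suz12 loss within 2 kb 1.27 (1.03 to 1.56).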

How the data were processed

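ChIP-seq was done by the authors on 10 libraries of mouse ESCs. Per the methods, 30-nucleotide reads were aligned to mm9 with Bowtie, uniquely aligned reads were kept, paired libraries were scaled to equal background, and 400 bp windows with a Skellam p-value of at most 1e-07 were joined and the p-value computed again. The deposited values are the p-values of the joined sites, 1 per site, in 4 lists. At the 11 Suz12-depleted sites around Nr2f2 this value equalled the binding p-value of the same Suz12 site. It is therefore not read as a p-value of Suz12 loss, and the list is used for presence only. The 2 Pcl3 libraries gave 1 list. No per-sample column was left unused (0). A p-value grows smaller with depth and width as well as with enrichment.

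Centers were compared with GENCODE vM1 and the mm9 sequence (Python 3.11.15, pysam 0.24.0). Lists were paired where centers lay within 2 kb, as in the methods. Shares were compared by Fisher's exact test and Mantel-Haenszel odds ratios over 10 groups of strength (scipy 1.17.1, statsmodels 0.14.6), adjusted over 4 tests by Benjamini-Hochberg. Medians have order-statistic intervals and no test. Intervals are 95% and cover counting error only. The functions were tested on simulated data.

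Distal sites named are the 10 strongest, 5 widest, 5 farthest, 5 with the smallest p of H3K27me3 loss, the 3 strongest outside the depleted list, without Pcl3 and on an exon, the 3 richest in CpG, and the strongest per gene list. The members and lists were chosen with earlier results of these data known. The sequence and description of 1 of the strongest sites are not reported here. Alternatives were other distances, starts, overlaps, strata and site sets.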

Additional observations from a re-analysis of the deposited data

How the results depend on the processing

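Of 143 alternatives 100 kept the direction and the side of the threshold, 24 turned the direction, 4 lost the call, 6 gained one and 9 moved a median beyond its interval. The alternatives with 50 groups of strength, without RefSeq starts, off coding exons and with both classes limited to isolated sites (no other within 10 kb) were chosen after seeing the data. Values are odds ratios, distal against proximal, and the cause of a change was not tested.

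For Pcl3 the call was lost with distal sites over 20 kb (0.921) or 50 kb (0.927) from a start and with Suz12 sites at a p-value of at most 1e-12 (0.923). It turned within groups of strength (1.54 over deciles, 1.53 over 50 groups), of width (1.51), without RefSeq starts within 10 kb (1.53), off coding exons (1.85 for distal sites alone, 1.79 for both classes) and among isolated sites (1.33), the last 4 also within deciles of strength. For a Suz12-depleted site within 2 kb the strict p-value lost the call (0.839), and the same groupings turned it, at 1.27 over deciles, 1.27 over 50 groups, 1.21 over width, 1.49 for the site itself, 1.27 without RefSeq starts, 1.19 and 1.16 off coding exons (distal alone and both classes, neither passing the threshold) and 1.32 among isolated sites.

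For H3K27me3 loss the direction turned beyond 20 kb (0.795) and 50 kb (0.652), against intermediate instead of proximal sites (0.586), by the nearest edge (0.952), for distal sites with no other site within 10 kb (0.885) and off coding exons (0.768 for distal sites alone, 0.895 for both classes). It passed the threshold without chromosome 11 (1.36), over deciles of strength (1.56) or width (1.61), over 50 groups (1.55), without RefSeq starts (1.89) and among isolated sites (1.97), the last 2 within deciles. Of the settings that turned, the one against intermediate sites also passed the threshold, with less loss at distal sites (0.586, 0.449 to 0.764). Islands were more frequent at distal than at intermediate sites (1.26).

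The distal median of strength was 29.8 for sites at the strict p-value and 15.5 for isolated sites, and that of width 1100 bp at the strict p-value. The distal CpG median of 5.2 was above that of intermediate sites, and it was 6 at the strict p-value, 5.6 for isolated sites, 4.38 over the whole site and 6.5 over 200 bp. No replicate could be left out because each list is a single call. The files hold no read counts, so no limit for sites absent from a list is given.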

Other observations

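The Pcl3 list held a larger share of regions over 10000 bp from every start than the Suz12 list. By the same distance rule 839 of 5242 Pcl3 sites were distal (16%, Wilson interval 15 to 17%), against 13.5% of Suz12 sites, 12% of Suz12-depleted sites (11.2 to 12.8%) and 13.9% of H3K27me3-depleted regions (11.5 to 16.7%). Only 42.8% of the H3K27me3-depleted regions lay within 1000 bp of a start, compared with 63% of Suz12 sites. The lists were not tested against each other, since the depleted sites are a subset of the Suz12 sites.

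Relative to the nearest protein-coding start, 539 distal sites were upstream and 655 downstream. Distal sites with an island and those without one differed in Pcl3, at 48.9% (45.1 to 52.8%) against 25.1% (21.6 to 28.9%), and in presence in the Suz12-depleted list, at 72.9% against 38.5%, while H3K27me3 loss was at 7.32% and 5.95%. Their strengths differed too, with medians of 30.4 and 11.3, and these shares were not matched on strength. Distal sites with Pcl3 had a median strength of 50.4 and those without it 12.4, and 82% and 42.1% of them were in the depleted list.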
